A study of Mus musculus with 2 samples.

Results

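DNA methylation writers, erasers and readers are described here as 9 genes of the deposited table, taken by gene symbol: the writers Dnmt1, Dnmt3a and Dnmt3b, the erasers Tet1, Tet2 and Tet3, and the readers Mbd1, Mbd2 and Uhrf1. All 9 were found among 32813 symbols, and all 9 were above 0 in both libraries. The study measured RNA in type 5 bipolar cells of the mouse, retinal neurons that pass cone signals to the ON sublamina. The cells came from the Htr3a-GFP line and were sorted by fluorescence after the retina had been dissociated. In this line a green fluorescent protein marks cells in which the Htr3a promoter is active. The study has 1 group with 2 biological replicates and no other cell population, so each value is a level in the sorted cells and not an enrichment over another cell. The sources used here give neither the age, sex and strain of the animals nor whether animals were pooled. Values are in TPM, the share of transcripts scaled to a fixed total, which adjusts reads for transcript length. Genes were set side by side on this scale. Any effect of the amplification before sequencing on ratios between genes was not tested. TPM keeps no read depth, so no counting interval is given, and n = 2 for each mean ± SD below.

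DNA methyltransferases place a methyl group on cytosine, mostly where a guanine follows (CpG). Dnmt1 copies the marks onto the new strand after replication, guided by Uhrf1, which binds hemimethylated DNA, while Dnmt3a and Dnmt3b set marks on DNA that had none. TET enzymes oxidise methylcytosine, and the oxidised bases are lost at replication or cut out and repaired. Proteins with a methyl-CpG binding domain, such as Mbd1 and Mbd2, read the mark and recruit corepressors. Neurons no longer divide, and in mouse brain Dnmt3a adds methylation outside CpG after birth.

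Start-site sequences are shown for the most abundant writer and the most abundant eraser. CpG is marked in them because writers act mostly at CpG and erasers on methylcytosine. Sequences are also shown for the maintenance pair Dnmt1 and Uhrf1, which dividing cells use. RefSeq promoters on GRCm38.p6, from 250 bases before to 50 after a start, were found for 7 members with 12 starts. Capitals mark CpG in the first 2 sequences, for Dnmt3a on the plus strand at chr12:3806730-3807029 and Tet1 on the minus strand at chr10:62887275-62887574.
Dnmt3a: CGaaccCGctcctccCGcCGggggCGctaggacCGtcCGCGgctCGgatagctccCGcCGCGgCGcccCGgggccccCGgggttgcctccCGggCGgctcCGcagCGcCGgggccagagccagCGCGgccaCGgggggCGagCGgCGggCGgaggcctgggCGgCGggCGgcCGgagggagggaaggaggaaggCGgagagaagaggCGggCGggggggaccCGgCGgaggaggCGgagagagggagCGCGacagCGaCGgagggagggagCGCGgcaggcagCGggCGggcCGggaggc
Tet1: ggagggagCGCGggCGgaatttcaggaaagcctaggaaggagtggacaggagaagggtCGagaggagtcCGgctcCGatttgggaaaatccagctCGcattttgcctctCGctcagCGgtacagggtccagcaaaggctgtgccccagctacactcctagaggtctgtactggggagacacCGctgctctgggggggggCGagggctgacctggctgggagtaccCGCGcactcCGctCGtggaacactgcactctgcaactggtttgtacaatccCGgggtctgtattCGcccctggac
This Dnmt3a window held 46 CpG, more than 98.4% of 32851 mouse promoters of the same length, and the Tet1 window held 17, more than 68.6%. The median promoter held 7. Over the 12 starts the number ran between 2 CpG, at the outermost of 3 Dnmt1 starts (chr9:20959839-20960138), and 57 CpG, at the Tet2 start (chr3:133544341-133544640). Dnmt3b had 30 and Tet3 had 22 CpG at their starts. The other Dnmt3a starts held 47 and 18.

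In the next 2 sequences capitals mark TTTGGCGC or TTTCGCGC, the E2F motif of genes switched on at DNA replication, searched on both strands. The motif was chosen after the sequences had been seen. It overlaps CpG by its letters. The Dnmt1 window lies on the minus strand at chr9:20952574-20952873 and the Uhrf1 window on the plus strand at chr17:56304063-56304362.
Dnmt1: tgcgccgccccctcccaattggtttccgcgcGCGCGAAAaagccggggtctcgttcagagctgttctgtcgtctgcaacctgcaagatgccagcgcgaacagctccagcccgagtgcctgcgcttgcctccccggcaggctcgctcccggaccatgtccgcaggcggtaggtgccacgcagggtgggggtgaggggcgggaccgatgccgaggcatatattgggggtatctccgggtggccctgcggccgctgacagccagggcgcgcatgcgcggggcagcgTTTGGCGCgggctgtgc
Uhrf1: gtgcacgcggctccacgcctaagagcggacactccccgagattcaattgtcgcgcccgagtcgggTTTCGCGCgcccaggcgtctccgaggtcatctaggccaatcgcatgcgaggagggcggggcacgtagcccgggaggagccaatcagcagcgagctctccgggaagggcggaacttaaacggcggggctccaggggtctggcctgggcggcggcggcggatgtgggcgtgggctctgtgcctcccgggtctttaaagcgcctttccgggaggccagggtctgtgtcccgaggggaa
Of the 12 starts, these 2 held the motif, and 0.813% of 32851 promoters did. Because the motif was chosen after the sequences had been seen, these shares are no test of enrichment. Both windows held 33 CpG, more than 91.4% of promoters, and some of the 12 windows overlap. Dnmt1 had it at 2 places and Uhrf1 at 1. The match is a description of letters, and TPM per gene does not say which start was used.

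Dnmt3a and Tet1 led the 9 genes at nearly the same level, and Tet2 and Dnmt1 came next. The mean was 161 ± 6.48 TPM for Dnmt3a, 154 ± 14.1 for Tet1, 65.3 ± 14.6 for Tet2 and 38.6 ± 2.99 for Dnmt1 (SD, n = 2). It was 32.9 ± 16.6 TPM for Tet3, 23.9 ± 0.87 for Mbd2, 10.4 ± 13.6 for Dnmt3b, 8.92 ± 5.62 for Mbd1 and 3.55 ± 1.29 for Uhrf1. In this order the ranges of Tet1 and Tet2, of Tet2 and Dnmt1, of Mbd2 and Dnmt3b, and of Mbd1 and Uhrf1 did not overlap between neighbours. Dnmt3a and Tet1, Dnmt1 and Tet3, Tet3 and Mbd2, and Dnmt3b and Mbd1 did overlap, and the last 3 of these pairs changed order between the libraries. Uhrf1 was lowest by mean and in replicate 1, but in replicate 2 Dnmt3b lay below it, at 0.80 TPM against 4.46 for Uhrf1.

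**Figure D1:**
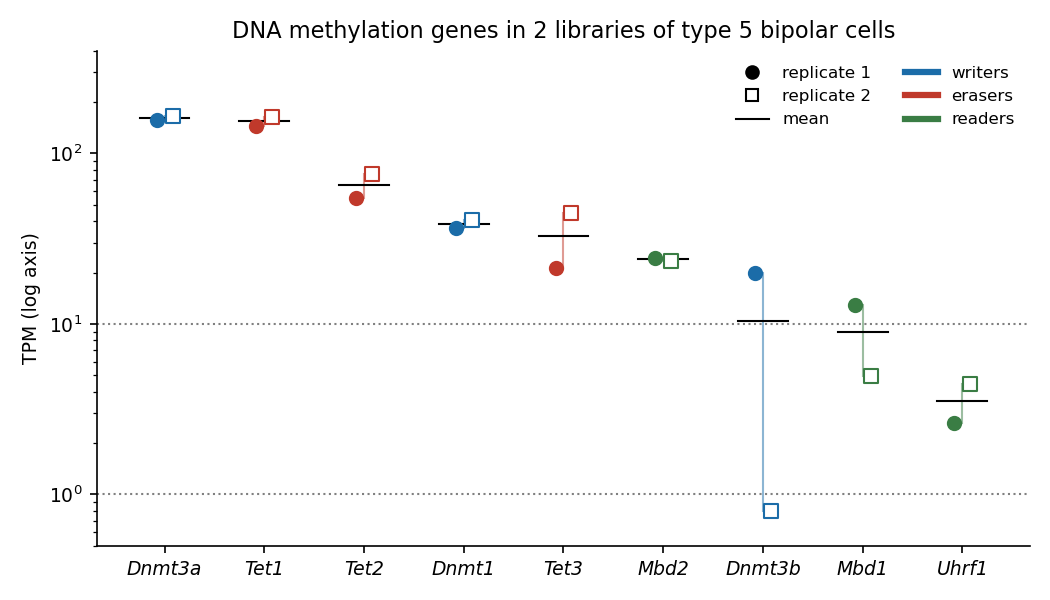
TPM of each gene on a log axis, with a filled circle for replicate 1, an open square for replicate 2, a bar for their mean and dotted lines at 1 and 10 TPM. Dnmt3a and Tet1 lie at 144 to 165 TPM in both libraries, whereas Dnmt3b lies at 20.0 TPM in replicate 1 and 0.80 in replicate 2.

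Levels were tested against a fixed line with limma on log2(TPM + 1), one-sided, with Benjamini-Hochberg adjustment over 19968 genes and a threshold of 0.05. Above 1 TPM were 7 of the 9 members, where 55.5% of all genes tested were called. Dnmt3b and Uhrf1 were the 2 not called, though Uhrf1 had 2.63 and 4.46 TPM. In counts of genes, above a line means called by this test unless no test is stated. Above 10 TPM were 6 of the 9, all 3 TET genes with Dnmt3a, Dnmt1 and Mbd2, where 32.4% of all genes were called. The median member stood at 4.99 on the log2(TPM + 1) scale and the median gene tested at 3.22. limma took each gene's spread from the trend with abundance, so the disagreement of a single gene did not enter its call. Dnmt3b was also called above 1 TPM after a filter on low values, with a robust prior or after rescaling, and Uhrf1 without the variance trend, whereas Mbd2 was not called above 10 TPM without the variance trend.

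Of the writers, Dnmt3a, the de novo enzyme of neurons, had 156 TPM in replicate 1 and 165 in replicate 2. Its rank by mean TPM was 895 among all symbols. Dnmt1, the maintenance enzyme, had 36.5 TPM in replicate 1 and 40.7 in replicate 2, with rank 4438. Dnmt3a was thus above Dnmt1 in each library, by 4.28 times in replicate 1 and 4.06 times in replicate 2. On the log2(TPM + 1) scale the difference was 2.03 ± 0.05 (SD, n = 2), far larger than its spread. With 2 libraries the smallest two-sided p of an exact sign test is 0.5, so no p is given for differences between members.

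Dnmt3b, the de novo enzyme best known from the early embryo, was the member on which the libraries disagreed most. It had 20.0 TPM in replicate 1 and 0.80 in replicate 2, a ratio of 24.98 and a log2(TPM + 1) difference of -3.54 (replicate 2 minus replicate 1). Its mean of 10.4 TPM therefore stands for neither library. Differences of over 2 log2 units were found for 7.42% of 8216 genes whose mean lay at 10 to 100 TPM. By its mean TPM Dnmt3b lay at the low end of this range, and genes that differed by as much as Dnmt3b were not counted. limma's trend used the mean log2(TPM + 1) of Dnmt3b instead, which was 2.62. The difference of Dnmt3b was -1.87 in units of the SD of a difference that the trend gave at that level. Dnmt3a exceeded Dnmt3b 7.82 times in replicate 1 and 207 times in replicate 2. Of the DNMT sum, Dnmt3a made up 73.5% in replicate 1 and 79.9% in replicate 2, Dnmt1 17.2% and 19.7%, and Dnmt3b 9.39% and 0.39%.

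Dnmt3b shares sequence with Dnmt3c, a rodent gene that arose from it by duplication and is known from male germ cells. Of the 5242 different 50-base words in the Dnmt3b transcripts of GENCODE M21, 514 (9.81%) also occurred in Dnmt3c. The sources used here do not say how the authors' counting treated shared reads, and no value for Dnmt3c was found under the names searched. No 50-base word was shared between any of the 9 members, so reads of that length do not tie them to each other. Dnmt3a has an antisense gene, Dnmt3aos, which covers 133 of its 16642 exon bases (0.80%), and whether strand was used in counting is not given.

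Tet1, an eraser with a CXXC domain that binds CpG, had 144 TPM in replicate 1 and 164 in replicate 2, with rank 953. Tet2, the eraser whose ancestral CXXC domain became the separate gene Cxxc4, had 54.9 and 75.6 TPM. Tet3, which oxidises the paternal genome in the zygote, had 21.2 and 44.6 TPM. The order Tet1 over Tet2 over Tet3 held in both libraries, with no overlap of ranges between the 3 genes.

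Tet3 stood below Tet1 by a log2(TPM + 1) difference of -2.28 ± 0.60 and below Tet2 by -1.04 ± 0.41 (SD, n = 2), each larger than its spread. The ratio of Tet1 to Tet3 was 6.80 in replicate 1 and 3.68 in replicate 2, so its size was less well fixed than its direction. Tet1 took 65.4% of the TET sum in replicate 1 and 57.7% in replicate 2, Tet2 24.9% and 26.6%, and Tet3 9.63% and 15.7%. The TET genes summed to 220 TPM in replicate 1 and 284 in replicate 2, and the DNMT genes to 213 and 207 TPM. Of the TET genes, Tet3 differed most between the libraries, by 1.04 log2 units.

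**Figure D2:**
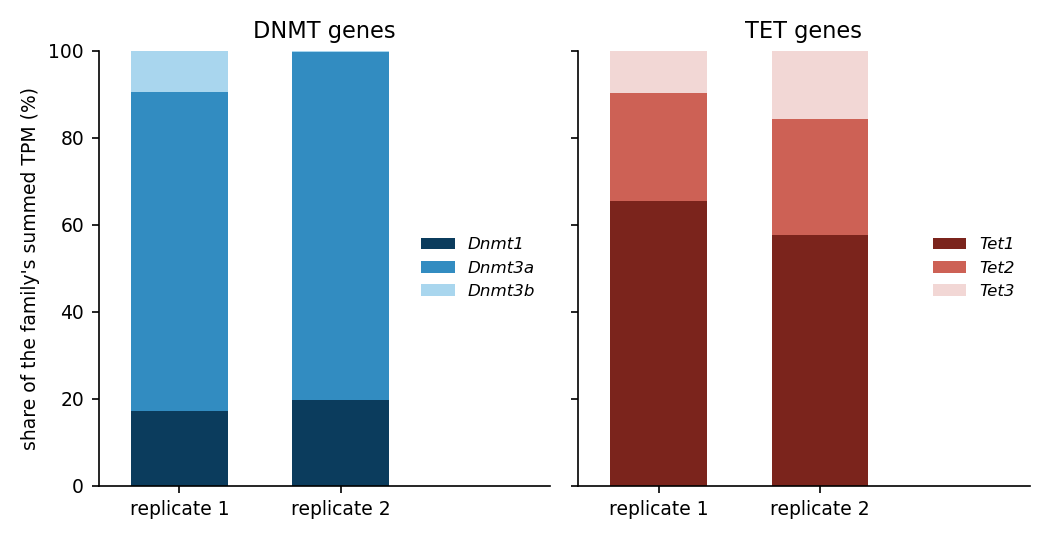
Stacked bars give each gene's share, in percent, of the summed TPM of the 3 DNMT genes (left) and the 3 TET genes (right) in each library. Dnmt3a makes up 73.5% and 79.9% of the DNMT sum, and Tet1 makes up 65.4% and 57.7% of the TET sum.

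Among the readers, Mbd2, the methyl-CpG binding subunit of the NuRD corepressor, had 24.5 TPM in replicate 1 and 23.3 in replicate 2. Mbd1, which joins a methyl-CpG binding domain to CXXC domains, had 12.9 TPM in replicate 1 and 4.94 in replicate 2. Mbd2 was higher than Mbd1 in both libraries, 1.90 times in replicate 1 and 4.71 times in replicate 2, with a log2(TPM + 1) difference of 1.45 ± 0.82 (SD, n = 2). The direction held in both libraries, but the size differed widely between them.

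Uhrf1 had 2.63 TPM in replicate 1 and 4.46 in replicate 2, and its rank by mean was 13030. It lay below its partner Dnmt1 in both libraries, with a log2(TPM + 1) difference of -3.15 ± 0.31 (SD, n = 2). Dnmt1 had 13.9 times the TPM of Uhrf1 in replicate 1 and 9.13 times in replicate 2. Uhrf2, the paralog of Uhrf1 that also binds modified cytosine, had 110 TPM in replicate 1 and 68.6 in replicate 2, or 41.9 and 15.4 times Uhrf1. Uhrf1 shares 669 of its 4348 different 50-base words (15.4%) with Gm5648 and Gm15953. No value for either was found under the names searched, so the low value of Uhrf1 carries this uncertainty.

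In GENCODE M21 on GRCm38 all 9 members are protein-coding. Of the writers, Dnmt1 spans 20907209 to 20959888 of chromosome 9 (minus strand), Dnmt3a spans 3806007 to 3914443 of chromosome 12 (plus strand) and Dnmt3b spans 153649450 to 153687730 of chromosome 2 (plus strand). The erasers are all on minus strands, on chromosome 10 from 62804570 to 62908996 (Tet1), chromosome 3 from 133463679 to 133545139 (Tet2) and chromosome 6 from 83362373 to 83459084 (Tet3). The readers are all on plus strands, on chromosome 18 from 74267605 to 74282732 (Mbd1) and from 70568189 to 70626131 (Mbd2), and on chromosome 17 from 56303321 to 56323486 (Uhrf1). Their longest annotated transcripts run between 1953 bases (Mbd2) and 14369 bases (Tet1), a span for which TPM adjusts. TPM per gene does not tell apart the 18 annotated transcripts of Dnmt3a or the 10 of Tet1.

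Between the libraries 6 members had a higher and 3 a lower TPM in replicate 2 than in replicate 1, with a median log2 difference of 0.15 over the members against -0.20 over the 19968 genes. Dnmt1, Dnmt3a, Tet1 and Mbd2 differed by less than 0.2 log2 units, and Tet2 by 0.45. When mitochondrial, ribosomal and small RNAs were left out and TPM rescaled, levels of all genes rose by a median of 0.37 log2 units, and the Mbd2 difference changed sign, with -0.07 before and 0.06 after. The count then was 7 higher and 2 lower, with Dnmt3b and Mbd1 lower in replicate 2 on either scale.

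**Figure D3:**
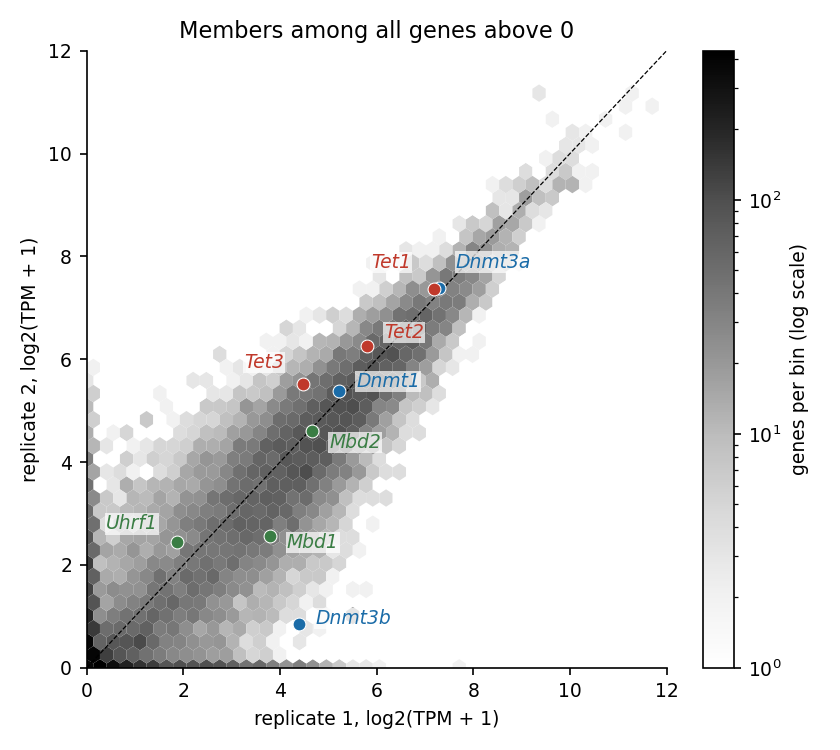
Replicate 2 against replicate 1 on the log2(TPM + 1) scale, with grey hexagons for the number of genes among the 19968 above 0, a dashed line of equality (genes beyond the axes are not drawn) and the 9 members in colour (blue writers, red erasers, green readers). Dnmt3b lies far below the line at a log2 difference of -3.54, and Dnmt3a, Tet1, Dnmt1 and Mbd2 lie close to it.

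Most other methyl-CpG readers had higher TPM than Mbd1 and Mbd2 in both libraries, Mbd4 and Zbtb33 being the exceptions. Of 8 such genes, 7 were above 1 TPM and 6 above 10 TPM, where 55.5% and 32.4% of all genes tested were called. The list median was 6.33 on the log2(TPM + 1) scale. Mbd5 stood at 133 ± 19.0 TPM and Mbd6 at 76.4 ± 12.7, both proteins that carry the domain but have not been found to bind methylated DNA through it. Mbd3, the NuRD subunit that takes the place of Mbd2, had 68.5 TPM in replicate 1 and 32.2 in replicate 2. The zinc finger readers Zbtb38 and Zbtb4 stood at 113 ± 23.1 and 83.1 ± 9.89 TPM (SD, n = 2). Mbd4, a repair glycosylase, had 3.15 TPM in replicate 1 and 5.49 in replicate 2 (4.32 ± 1.65) and was the 1 not called above 1 TPM. Zbtb33, which encodes Kaiso, had 14.8 TPM in replicate 1 and 2.78 in replicate 2.

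Corepressors that readers recruit were called nearly throughout, with 19 of 20 above 1 TPM and 18 above 10 TPM. Over all genes tested the shares were 55.5% and 32.4%. Hdac2, a histone deacetylase, stood at 435 ± 14.1 TPM, Ncor1, a nuclear corepressor scaffold, at 247 ± 76.9, and Hdac3, its deacetylase partner, at 114 ± 47.0 (SD, n = 2). Chd4, the NuRD remodeller, stood at 92.4 ± 20.7 TPM and Atf7ip, the partner of Mbd1, at 143 ± 50.1. Chd3, the other NuRD remodeller of the list, was the 1 not called, with 10.2 TPM in replicate 1 and 1.28 in replicate 2. Of 6 genes that bind unmethylated CpG through a CXXC domain, 5 were above 1 TPM and 5 above 10, beside 55.5% and 32.4% over all genes tested. The histone demethylase gene Kdm2a led them at 214 ± 51.4 TPM, and Fbxl19 was not called at 1.31 ± 0.35 TPM.

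All 11 genes of TET cofactors and partners were above 1 TPM and 10 above 10 TPM, where 55.5% and 32.4% of all genes tested were called. Ogt, which attaches GlcNAc and binds TET proteins, stood at 403 ± 26.8 TPM, and Mgea5, which removes GlcNAc, at 363 ± 0.81 (SD, n = 2). Of the isocitrate dehydrogenase genes, whose products make the TET cosubstrate oxoglutarate, Idh2 stood at 82.1 ± 20.6 TPM, Idh3a at 49.2 ± 13.4 and Idh1 at 32.3 ± 11.2. Cxxc4 stood at 59.2 ± 6.79 TPM, and Slc23a2, a vitamin C transporter, at 43.6 ± 12.6. D2hgdh, the lowest of the list, had 25.4 TPM in replicate 1 and 8.65 in replicate 2.

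Base excision genes that act on oxidised cytosine had 10 of 12 tested genes above 1 TPM and 7 above 10 TPM. Over all genes tested the shares were 55.5% and 32.4%. Tdg, the glycosylase that removes oxidised methylcytosine, stood at 35.3 ± 5.95 TPM, Smug1 at 112 ± 40.3 and the repair polymerase Polb at 137 ± 46.7 (SD, n = 2). Lig3, a DNA ligase, had 19.4 TPM in replicate 1 and 102 in replicate 2, and its mean stands for neither. Gadd45b was listed at 0 in both libraries, while Gadd45a and Gadd45g stood at 21.97 ± 13.1 and 22.9 ± 9.34 TPM. Neil1 and Neil2 were not called, at 2.23 ± 0.11 and 2.33 ± 0.35.

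Genes of methyl donor supply had 7 of 11 tested genes above 1 TPM and 4 above 10 TPM, where 55.5% and 32.4% of all genes tested were called. Mat2a, which makes S-adenosylmethionine outside the liver, stood at 253 ± 12.05 TPM and its regulatory partner Mat2b at 62.0 ± 1.60, while the liver gene Mat1a was listed at 0 in both libraries. Ahcy, which clears the inhibitory product of methylation, had 2.86 TPM in replicate 1 and 3.29 in replicate 2 and was not called. Its relatives Ahcyl1 and Ahcyl2 stood at 251 ± 30.6 and 92.2 ± 3.59 TPM (SD, n = 2). The list median of 2.91, with Mat1a counted at 0, lay below the median gene tested, at 3.22.

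De novo partners and related genes had 7 of 8 tested genes above 1 TPM and 6 above 10, beside 55.5% and 32.4% over all genes tested. Dnmt3l, the cofactor of de novo methylation in germ cells, and Dppa3, a guard of methylation in the oocyte and zygote, were listed at 0 in both libraries. Trim28, a corepressor that brings DNA and histone methylation to retroelements, stood at 197 ± 38.9 TPM (SD, n = 2). Trdmt1, the relative of the DNMT family that methylates transfer RNA, had 5.82 TPM in replicate 1 and 5.71 in replicate 2 and was not called. Maintenance partners had 5 of 7 tested genes above 1 TPM and 4 above 10 TPM, where 55.5% and 32.4% of all genes tested were called. Among them were Pcna, the replication clamp, at 128 ± 16.8 TPM, Usp7, which removes ubiquitin from Dnmt1 and Uhrf1, at 88.5 ± 0.04, and the ligase Lig1 at 117 ± 8.46. Hells, a remodeller that dividing cells need for methylation, stood at 5.05 ± 2.08 TPM, and its partner Cdca7 was listed at 0 in both. Over the 8 lists of pathway genes, 71 of 83 tested genes were above 1 TPM and 60 above 10 TPM, beside the same 55.5% and 32.4% of all genes.

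**Figure D4:**
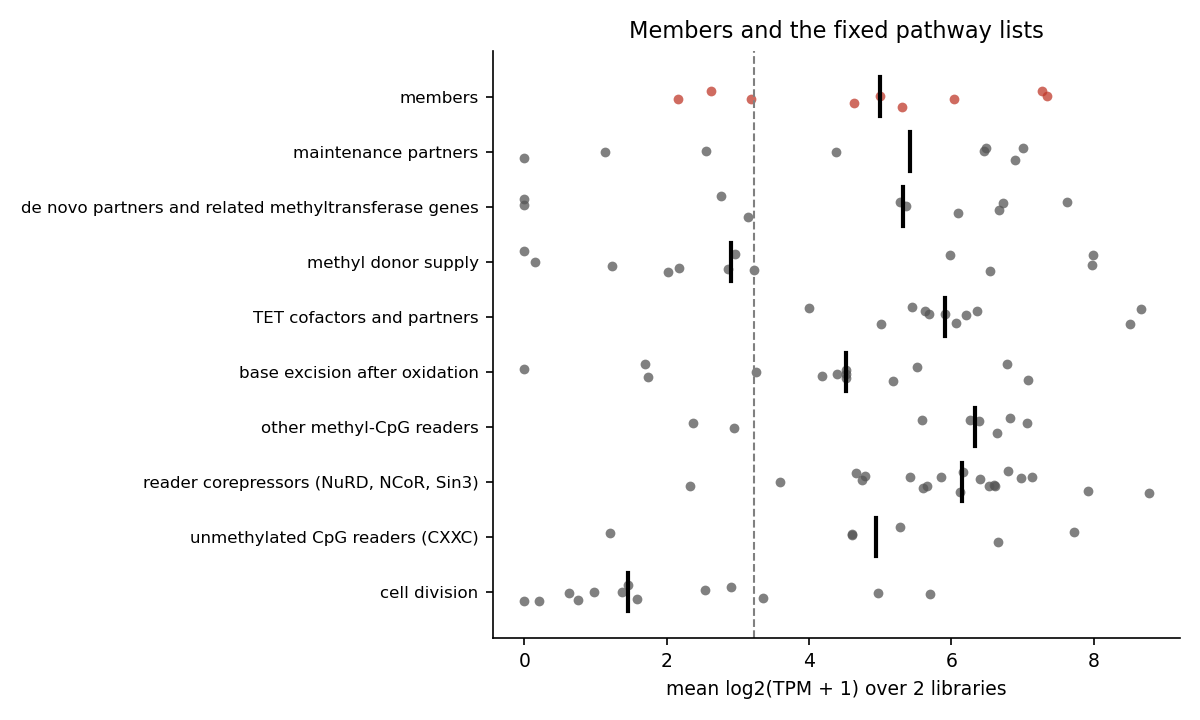
Mean log2(TPM + 1) over both libraries, with a point for each gene, a black bar at each list's median and a dashed line at the median of all genes tested (3.22). The members (red) have a median of 4.99, the corepressors 6.14 and the cell division genes 1.46.

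Cell division genes were set beside Dnmt1 and Uhrf1, whose products act at replication. Of 13 such genes 12 were tested, 4 were above 1 TPM and 2 above 10 TPM, and the list median was 1.46. Over all genes tested the shares were 55.5% and 32.4%. Mki67, the usual stain of cycling cells, had 0.22 TPM in replicate 1 and 0.09 in replicate 2, and Cdk1 was listed at 0 in both. Tyms, which makes thymidylate, had 84.0 and 30.8 TPM, and Birc5, which encodes survivin, had 39.9 and 23.2. Top2a stood at 9.68 ± 4.48 TPM and Mcm6 at 6.65 ± 2.05 (SD, n = 2). Without a test 6 of the 13 had at least 1 TPM in replicate 1 and 10 in replicate 2. The share of these genes' RNA that belongs to the sorted cells was not tested.

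By the distance of both libraries' log2(TPM + 1) values, the nearest of 101 listed genes were Ehmt1 to Dnmt1 (distance 0.07), Gatad2b to Tet2 (0.13), Apex1 to Mbd2 (0.20), Mbd4 to Uhrf1 (0.32) and Top2a to Mbd1 (0.34). Mbd5 was nearest to Tet1 (0.45) and Trim28 to Dnmt3a (0.46), with Mta2 nearest to Tet3 (0.65) and Chd3 to Dnmt3b (0.97). The second nearest gene was Sin3b for Dnmt1 and Tet3, Tbl1x for Tet2, Gatad2a for Mbd2, Ahcy for Uhrf1, Zbtb33 for Mbd1 and Dnmt3b, and Mbd5 for Dnmt3a. Likeness over 2 libraries says only that the levels were alike.

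Most markers of the labelled cell type were above 1 TPM, and so were some genes used as markers of other retinal cells. Of 7 type 5 markers 5 were above 1 TPM, with Kcng4 at 277 ± 68.7 TPM, while Chrm2 had 0.08 and 1.15 TPM. All 10 genes of a wider list of bipolar markers were above 10 TPM, between 132 and 1337 TPM. Of the genes used to mark other cells, 10 of 12 rod photoreceptor markers, 2 of 8 cone, 6 of 9 Muller glia, 2 of 8 amacrine, 1 of 8 ganglion cell and 1 of 5 rod bipolar markers were above 1 TPM, and 0 of 7 microglia and 0 of 5 endothelial markers by limma. Over all genes tested 55.5% were called, so the Muller glia count lay nearest to this share, the rod count above it and the other lists below it. Genes at 0 in both libraries are in these list totals but were not tested, and the other lists lie below the share with or without them. Whether these transcripts came from other cells was not tested. Of the microglia and endothelial lists, 0 genes passed at an unadjusted p under 0.05, and without a test 1 gene each had at least 1 TPM in both libraries. Between the libraries the sums moved in different directions. Muller glia markers summed to 192 TPM in replicate 1 and 408 in replicate 2, rod markers to 1665 and 1732, and cone markers to 189 and 43.7. Dnmt3b and Mbd1 were lower in replicate 2, as were the sums of the cone list, the endothelial list and the wider bipolar list. The sums of the other marker lists were higher in replicate 2. The part of other cells in these differences was not tested. Fewer cells of a type and less RNA per cell cannot be told apart in such bulk samples.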

How the data were processed

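RNA of 2 libraries of sorted type 5 bipolar cells was measured by sequencing after amplification with the NuGEN Ovation V2 kit, per the labels' protocols. The authors deposited TPM per gene symbol, with 1 column for each library. Named in the submitters' processing notes are mm10, RSEM 1.2.28 and TopHat2 2.0.10, without their roles. The columns sum to 999999.75 and 999999.66, and depth is unknown. The column heading of replicate 1 misspells Htr3a, so its replicate number was used for the match.

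Values were put on log2(TPM + 1), with a pseudocount of 1, and genes at 0 in both libraries left out. limma 3.58.1 in R 4.3.3 fitted an intercept with a variance trend, and a level above 1 or 10 TPM was tested one-sided over 19968 genes. Its prior for the variance was infinite (19968 degrees of freedom), so adjusted p-values of single genes are not printed. The fit was tested on simulated data, where genes far above 1 TPM were called and those a few times above it were mostly missed, so a gene that was not called may still lie above the line. Alternatives were other pseudocounts, a filter on low values, no variance trend, a robust prior, rescaling without mitochondrial, ribosomal and small RNA, and leaving out each replicate. Python 3.11.15 with pandas 2.3.3 was used.

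The members, the 19 gene lists and the rule for named genes were chosen with earlier results of these data known. The rule takes all members, any gene of the 9 lists of functions, the highest and lowest of each of 10 marker lists and those listed at 0, and the 2 nearest listed genes of each member, and some genes it takes are not reported here. Positions and transcripts are from GENCODE M21 (GRCm38, which is mm10).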

Additional observations from a re-analysis of the deposited data

How the results depend on the processing

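Under the 9 alternatives the number of members above 1 TPM lay between 7 and 9, and above 10 TPM between 5 and 8. Leaving out replicates gave 8 and 9 members at or over 1 TPM, and 6 and 8 at or over 10 TPM, with no test. Of 75 recomputed levels and differences 0 changed sign, and 6 levels moved by more than their spread, 5 of them after rescaling. A level on log2(TPM + 1) cannot fall below 0, so the count of signs bears mainly on the differences. With n = 2 a single replicate always lies within 1 SD of the mean. Leaving out a replicate therefore could not count as a move, and that count bears only on pseudocounts and rescaling. The differences ranged over 2.00 to 2.07 (Dnmt3a minus Dnmt1), 2.91 to 6.53 (Dnmt3a minus Dnmt3b), -2.71 to -1.86 (Tet3 minus Tet1), -1.33 to -0.75 (Tet3 minus Tet2), 0.88 to 2.03 (Mbd2 minus Mbd1) and -3.37 to -2.93 (Uhrf1 minus Dnmt1) with either replicate alone.

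Counts of list members moved by over 1.5 times from the main value in 7 lists. Single libraries gave 6 to 10 cell division, 4 to 5 rod bipolar, 6 to 7 cone and 2 to 6 amacrine genes at or over 1 TPM, and 2 ganglion cell, 2 microglia and 2 endothelial genes each. Both libraries together, with no test, gave 4 rod bipolar, 6 cone, 2 ganglion cell, 1 microglia and 1 endothelial gene. A pseudocount of 0.1 gave 2 rod bipolar and 2 ganglion cell genes. The cause was not tested. Unknown depth limits all low values. No paired analysis was possible because there is a single group.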
